A study of Mus musculus with 6 samples.

Results

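The cells described here are the testicular germ cells that the depositors annotated as round spermatids of steps 5-6, one of 17 fine classes in a deposited table of cells. All cells carrying that class name were taken, which gave 4231 of 46495 cells (9.10%), and no expression value entered the choice. They came from 6 single-cell RNA-seq libraries of testes of adult C57BL6 mice, 3 libraries of the genotype named NONO (TA with 863 cells of the class, TB with 927 and TC with 769) and 3 of the genotype named NONO deltaER (TD with 600, TE with 468 and TF with 604). All 6 share strain, age and tissue, and no treatment was given. What the deltaER alteration changes in Nono, in which cells it acts and whether the NONO animals carry any allele of their own could not be learned from the labels. The cell table calls the groups WT and KI, which were read as NONO and NONO deltaER. If that reading is wrong, every direction between the genotypes turns. Whether each library stands for 1 animal is not labelled, and p-values therefore measure only spread between libraries, which may be technical.

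Round spermatids are the haploid cells that follow meiosis, and spermiogenesis is the remodelling that turns them into sperm. In these steps the acrosome, the enzyme-filled vesicle that later meets the egg, spreads as a cap over the nucleus, while the flagellum grows from the opposite pole. Transcription then winds down as histones are replaced by transition proteins and finally by protamines, and many messages are stored for translation in elongating spermatids. The activator CREM drives many of the post-meiotic genes. Nono encodes a nuclear RNA- and DNA-binding protein that pairs with Sfpq and Pspc1.

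The given markers placed the class among round spermatids but did not set it apart from its predecessor. Acrv1, which encodes the acrosomal protein SP-10 (chromosome 9, 36693220 to 36698843 on the plus strand, protein coding), averaged 214 ± 23.9 CPM (counts of UMI scaled to the same total in every library and class, SD over 6 libraries) in steps 5-6. It averaged 276 CPM in steps 4-5 and 6.72 CPM in steps 6-7. Spaca7, another acrosomal gene (chromosome 8, 12573029 to 12600744, plus strand, protein coding), was at 605 CPM in steps 4-5, 495 ± 33.7 CPM in steps 5-6 and 282 CPM in steps 6-7. Both were thus second-highest in steps 5-6 of all 17 classes and highest in steps 4-5. The other given marker, Tssk1, was not analysed here. With every cell thinned to 1000 UMI, Acrv1 was found in 18.8% of the cells of steps 5-6, against 24.99% in steps 4-5 and 0.569% in steps 6-7. Pachytene to early diplotene spermatocytes, which should lack Acrv1, gave 0.0734%, and Sertoli cells, at a median of 1836 UMI against 13819 in the class, gave 2.56%. The class lay in the deposited broad class of spermatids, and its successor in that of elongating cells.

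The class was deeply covered. Its summed UMI ran from 8498509 to 14400200 per library, with a median of 13819 UMI and 3634 genes per cell, and 37 cells had under 1000 UMI. Sertoli, Leydig, myoid, macrophage, fibroblast-like and endothelial marker lists each held at most 0.00241% of the class's UMI. Of 45836 distinct barcodes, 650 occurred in more than 1 library, and 129 cells of the class carried such a barcode. A doublet caller marked 0.398% of all cells. Whether it missed doublets or they had been removed before deposit could not be told, so no cell was removed on that basis.

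Genes for nuclear compaction rose steeply into this class. Prm2, which encodes protamine 2, read 15099 CPM in TA, 15978 in TB, 18025 in TC, 19693 in TD, 17190 in TE and 15302 in TF. All 6 values were far above the 484 CPM of steps 4-5 and far below the 66591 CPM of steps 6-7, with a mean of 16881 ± 1777 CPM. In UMI per cell the 3 classes held 8.37, 264 and 589. Beside these, pachytene to early diplotene spermatocytes, at a median of 32452 UMI, held 15.2 Prm2 UMI per cell. Their median Prm2 share was 0.00202% of UMI, and 19 of 1362 cells reached 1%. Sertoli cells held 63.3 Prm2 UMI per cell, Leydig cells 16.1 and preleptotene spermatocytes 4.35. Sertoli cells are shallower, at a median of 1836 UMI against 13819 in the class. With cells thinned to 1000 UMI, Sertoli cells held a mean of 18.0 Prm2 UMI and cells of steps 5-6 17.2. A Prm2 UMI was then found in 58.0% of Sertoli cells and 93.4% of steps 5-6 cells. Of 1676 Sertoli cells, 467 had under 1000 UMI and were left out. Whether free RNA gave these counts was not tested. Tnp2, which encodes transition protein 2, read 7570, 7451 and 7629 CPM in TA, TB and TC and 10879, 8018 and 6185 CPM in TD, TE and TF. The NONO values lay within the range of the NONO deltaER values. Its means were 175 CPM in steps 4-5, 7955 ± 1562 CPM in steps 5-6 and 30736 CPM in steps 6-7. Prm1, for protamine 1, was at 14.5, 479 and 2186 CPM in the same order, and H1fnt, a linker histone of spermatids, at 513, 2243 and 4570 CPM.

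Prm1, Prm2, Prm3 and Tnp2 lie side by side on the minus strand of chromosome 16 (GRCm38), from 10787936 at the Tnp2 end to 10805839 at the Prm1 end. All of them are annotated as protein coding. Prm3 rose least of the cluster, from 22.5 to 48.5 and then 122 CPM. The windows upstream of Prm2 and Tnp2 are shown because both genes rose steeply into this class and again into the next. Each run is the 250 bases before the RefSeq start (GRCm38.p6), read 5′ to 3′ along the gene, with capitals for the TATA motif TATAAA, the GT repeat GTGTGT, the CRE half-site TGACG and the full CRE palindrome TGACGTCA on either strand. The half-site is contained in the palindrome.
Prm2 (chr16:10792106-10792355, minus strand): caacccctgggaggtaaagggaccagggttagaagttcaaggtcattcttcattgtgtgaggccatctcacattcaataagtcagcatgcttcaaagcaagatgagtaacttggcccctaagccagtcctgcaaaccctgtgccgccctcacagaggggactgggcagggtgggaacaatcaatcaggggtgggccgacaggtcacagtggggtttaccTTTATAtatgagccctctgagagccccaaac
Tnp2 (chr16:10788656-10788905, minus strand): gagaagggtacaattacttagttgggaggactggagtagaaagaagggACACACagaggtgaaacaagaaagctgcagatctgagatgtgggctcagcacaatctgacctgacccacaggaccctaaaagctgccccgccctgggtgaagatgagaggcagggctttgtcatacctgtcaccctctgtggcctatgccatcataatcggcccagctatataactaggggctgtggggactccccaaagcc
The Prm2 window holds the TATA motif on the reverse strand, read as TTTATA 31 bases before the start. TATAAA occurred in 13.6% of all 32851 RefSeq windows of 300 bases. It occurred in 7.84% of windows of genes at 10 CPM or more in at least 1 of the 3 classes. For those of them that gained 2-fold or more from steps 4-5 to steps 5-6, the share was 7.34%. The Tnp2 window holds 1 GT repeat on the reverse strand, a motif found in 17.4% of all windows.

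Tnp1 and Hils1, listed for histone-to-protamine exchange, have no entry in the deposited matrix. Of the 18 measured genes of this group, 14 reached 10 CPM in at least 1 of the 3 classes. From steps 4-5, 6 of these rose 2-fold or more with all 6 libraries moving the same way, against 17.9% of all 8490 genes compared. Besides the cluster and H1fnt, Cdyl, a reader of histone methylation, peaked in the class at 1091 CPM between 384 and 903 CPM. Chd5, a chromatin remodeller, also peaked there at 629 CPM between 441 and 321 CPM. Brdt, the testis bromodomain protein that binds acetylated histones, went the other way, at 439, 220 and 44.3 CPM, as did the histone methyltransferase gene Dot1l at 388, 140 and 11.3 CPM. Such comparisons between classes are descriptions, since the classes were drawn from the same expression values.

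**Figure D1:**
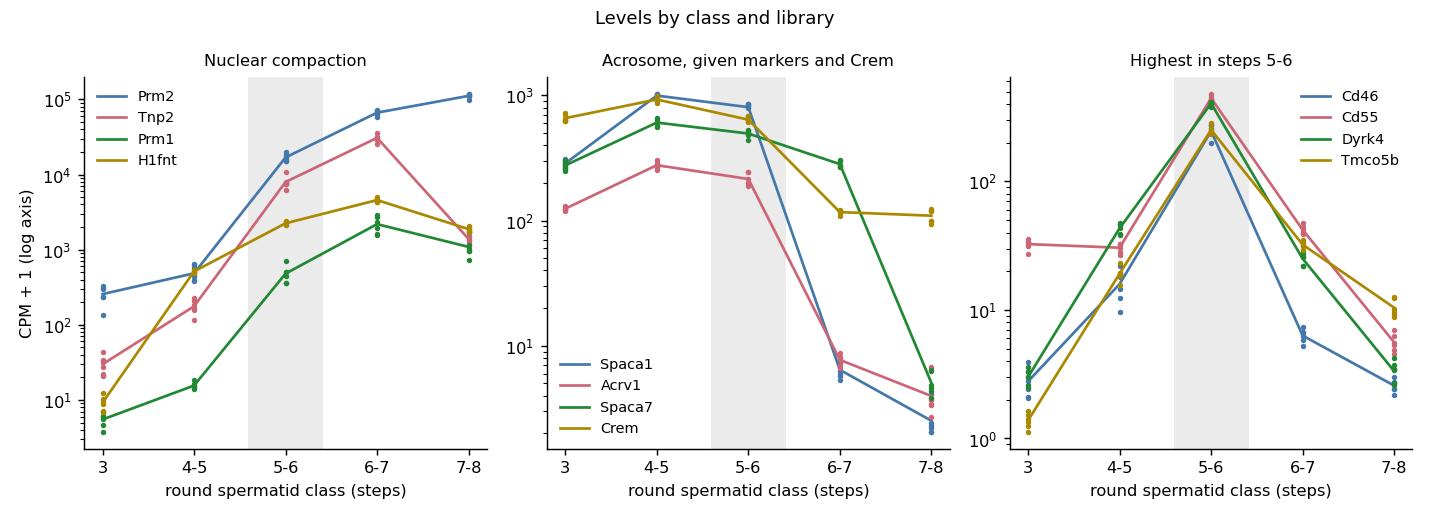
Level of 12 genes in 5 round spermatid classes. Points are the 6 libraries, lines their means, the vertical axis is CPM + 1 on a log scale, and the grey band marks steps 5-6. Prm2 climbs from 484 to 16881 to 66591 CPM across steps 4-5, 5-6 and 6-7, while Spaca1 goes from 995 to 804 to 5.43 CPM and Cd46, Cd55, Dyrk4 and Tmco5b are highest in the band.

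Most acrosome genes did not move 2-fold on entry, and most fell 2-fold or more on exit. All 28 measured members were at 10 CPM or more in at least 1 of the 3 classes. None rose 2-fold or more from steps 4-5, where 17.9% of all genes did. Of the 28, 6 fell 2-fold or more (21.4%, beside 31.8% of all genes). Into steps 6-7, 24 of the 28 fell 2-fold or more, beside 57.1% of all genes, with a median log2 change of -3.17 against -1.09 for all genes. Spaca1, a membrane protein of the acrosome, read 844, 817 and 847 CPM in the NONO libraries and 685, 845 and 788 CPM in the NONO deltaER libraries. It stood at 995 CPM in steps 4-5 and at 5.43 CPM in steps 6-7, so the message was nearly gone in the next class. Fam209 was highest in steps 5-6 of all classes, at 1591 ± 115 CPM between 1148 and 45.1 CPM. Izumo1, the sperm protein that binds the egg, Eqtn, Tmem190, Pcsk4 and Spaca6 were also highest in the class. Izumo1 was at 249, 329 and 18.6 CPM. The proacrosin gene Acr was already past its height at 482, 388 and 11.4 CPM, and Spam1, the sperm hyaluronidase, at 349, 42.7 and 13.6 CPM. Crisp2 and Capza3 differed from the rest and went on rising in CPM, Crisp2 from 1915 to 2001 and 3441 CPM. Median UMI per cell was 13819 in steps 5-6 and 7372.5 in steps 6-7. A rise into steps 6-7 that is given only in CPM, here or elsewhere, therefore need not be a rise in UMI per cell.

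Acrv1 and Spaca1 are printed because both stayed high here and were lost in the next class, and Ccin because it gained here among the head genes described next. Capitals are as above.
Acrv1 (chr9:36692970-36693219, plus strand): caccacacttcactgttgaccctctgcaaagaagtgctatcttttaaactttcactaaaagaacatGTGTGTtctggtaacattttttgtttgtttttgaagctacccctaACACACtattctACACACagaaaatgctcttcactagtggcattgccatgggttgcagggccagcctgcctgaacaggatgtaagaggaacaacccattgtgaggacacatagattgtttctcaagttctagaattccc
Spaca1 (chr4:34050066-34050315, minus strand): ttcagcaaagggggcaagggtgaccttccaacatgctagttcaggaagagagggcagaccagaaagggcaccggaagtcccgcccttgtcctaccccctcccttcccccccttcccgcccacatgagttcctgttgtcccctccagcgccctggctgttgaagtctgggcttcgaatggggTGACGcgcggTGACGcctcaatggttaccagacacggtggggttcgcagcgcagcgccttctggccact
Ccin (chr4:43983254-43983503, plus strand): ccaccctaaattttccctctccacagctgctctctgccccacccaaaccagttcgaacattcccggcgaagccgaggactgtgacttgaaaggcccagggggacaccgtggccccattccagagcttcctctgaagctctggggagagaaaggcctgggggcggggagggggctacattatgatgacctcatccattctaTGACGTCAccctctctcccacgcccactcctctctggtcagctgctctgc
The Acrv1 window holds GTGTGT 3 times, once on the forward and 2 times on the reverse strand. The Spaca1 window holds the forward CRE half-site TGACG 2 times, 69 and 59 bases before the start. This half-site occurred in 20.8% of all windows and in 29.8% of windows of the genes compared between the 3 classes. Ccin holds the full CRE palindrome TGACGTCA 50 bases before its start, as do 1.79% of all windows, 3.26% of windows of the genes compared between the 3 classes and 2.66% of windows of those that gained 2-fold or more from steps 4-5. These are matches of letters, and nothing in the files measures a factor on them. Windows of the 105 genes at 50 CPM or more that were highest in the class by 2-fold or more had a median of 5 CpG in 300 bases, over the 85 genes with a window. The median was 18 for genes compared between the 3 classes and 7 over all windows.

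Several genes that shape the sperm head rose on entry. Of 17 members at 10 CPM or more, 6 rose 2-fold or more from steps 4-5 (35.3%, beside 17.9% of all genes) and 2 fell 2-fold or more (11.8%, beside 31.8%). Actrt3, an actin-related protein of the perinuclear theca (the protein shell around the nucleus), went from 11.3 to 493 ± 28.2 and then 322 CPM. Ccin, which encodes calicin of the same shell, went from 105 to 552 ± 67.4 and then 228 CPM. Actl7a was highest in the class too, at 266, 420 and 269 CPM. Hook1, which links the manchette microtubules, rose from 700.3 to 1948 and then 2649.9 CPM, and Spata6, which builds the connecting piece, from 1707 to 2499 and 4701 CPM. Sun5, a nuclear envelope protein at the head-tail junction, was at 257, 178 and 24.9 CPM.

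Many axoneme genes fell on entry, while genes of the accessory tail structures varied. Of 29 genes of the axoneme and of intraflagellar transport, 17 fell 2-fold or more from steps 4-5 (58.6%, beside 31.8% of all genes) and 1 rose 2-fold or more. The gene that rose was Tekt5, a filament protein of the tail, at 109, 520 and 237 CPM. Rsph1, a radial spoke protein, fell from 1104 to 306 and 138 CPM, and the dynein heavy chain gene Dnah8 from 403 to 82.0 and 35.3 CPM. Of 15 genes of the outer dense fibres and fibrous sheath, 2 rose and 2 fell 2-fold or more (13.3% each way, beside 17.9% and 31.8% of all genes). Their median log2 change from steps 4-5 was 0.26, against -0.46 for all genes. Akap4, an X-linked anchor protein and main component of the fibrous sheath, read 3291, 3332 and 3531 CPM in TA, TB and TC and 3332, 3528 and 3604 CPM in TD, TE and TF. It was at 1377 CPM in steps 4-5 and 7602 CPM in steps 6-7. Odf2 was at 4578, 6949 and 13555 CPM, and Smcp, a cysteine-rich protein of the mitochondrial sheath, at 3012, 6966 and 16128 CPM. Ropn1l, Akap3, Cabyr and Odf3 were highest in steps 5-6. Fsip2 of the same sheath was at 1674, 475 and 29.9 CPM.

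Single genes of energy supply and of kinase signalling moved 2-fold or more on entry, where 17.9% of all genes rose and 31.8% fell. Gpi1, a glycolytic enzyme, rose from 71.3 to 686 and 1596 CPM, and Pkm from 104 to 408 and 618 CPM. Pfkp and Slc2a3 fell 2-fold or more, and the other 8 of the 12 glycolysis and lactate transport genes did not move 2-fold. Slc16a7, a lactate transporter, was highest in the class at 1204 CPM. Of 6 testis-specific serine kinase genes, Tssk3, Tssk6 and the kinase substrate Tsks rose 2-fold or more, and Tssk5 fell from 58.2 to 2.00 CPM. The 13 measured mitochondrially encoded genes together held 0.0405% of UMI in steps 4-5, 0.0141% in steps 5-6 and 0.0159% in steps 6-7.

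Of 13 transcription regulators of the post-meiotic programme, 4 fell 2-fold or more from steps 4-5 (30.8%) and 8 did so into steps 6-7 (61.5%). Both shares were near those of all genes, 31.8% and 57.1%. Crem itself was at 926 CPM, then 639 ± 24.6 CPM, then 116 CPM. Tbpl1, the TBP-like factor needed in round spermatids, fell from 537 to 129 and 5.60 CPM. Sox30, a regulator of post-meiotic genes, was highest in steps 5-6, reading 590, 483 and 556 CPM in the NONO libraries and 406, 526 and 591 CPM in the NONO deltaER libraries, between 235 and 252 CPM in the neighbouring classes. Among RNA-binding proteins, Ddx4, the germ cell helicase of the chromatoid body, fell from 926 to 286 and 29.6 CPM, and Pabpc1, the poly(A)-binding protein, from 2683 to 1837 and 107 CPM. Ybx2, which stores spermatid messages, stayed near its level at 2397, 1934 and 2942 CPM. Per1, a clock gene, was highest in this class at 247 ± 53.3 CPM, between 46.6 and 38.1 CPM. Of 7 clock genes at 10 CPM or more in at least 1 of the 3 classes, 3 rose 2-fold or more from steps 4-5. That was 42.9%, beside 17.9% of all genes, and 2 fell 2-fold or more (28.6%, beside 31.8%). The clock genes Arntl, Cry1 and Per2 were each under 5 CPM in steps 5-6. Dusp1, one of 11 dissociation stress genes, stood at 30.4 CPM, and the stress list together held 0.00443% of UMI in steps 5-6 and 0.00210% in steps 4-5. Whether dissociation took part in the Per1 level was not tested.

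A set of genes was highest in this class of all 17. Of 3035 genes at 50 CPM or more in steps 5-6, 545 were higher there than in any other class and 105 of these by 2-fold or more over the next. The largest ratio belonged to Cd46, a regulator of complement that in rodents is largely a testis gene of the acrosome. It read 255, 272 and 232 CPM in the NONO libraries and 199, 241 and 273 CPM in the NONO deltaER libraries, against 14.9 CPM in steps 4-5 and 5.32 CPM in steps 6-7. With cells thinned to 1000 UMI, 20.6% of the cells of steps 5-6 had a Cd46 UMI, 1.72% in steps 4-5, 0.478% in steps 6-7 and 1.90% of Sertoli cells. Cd55, another complement regulator, was at 443 ± 20.2 CPM between 29.5 and 41.0 CPM. Both genes are on chromosome 1.

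Dyrk4, a protein kinase of the DYRK family, varied little between libraries. It read 408, 413 and 416 CPM in the NONO libraries and 395, 410 and 381 CPM in the NONO deltaER libraries, between 42.2 and 24.1 CPM in the neighbours. Slc36a3, a member of the proton-coupled amino acid transporter family, was at 193 ± 10.2 CPM between 21.3 and 20.5 CPM. Tmco5b stood at 251 ± 18.7 CPM, the protein kinase gene Smok2a at 60.7 ± 3.06 CPM, and Nim1k, another kinase gene, at 79.9 ± 3.30 CPM. Unc80, Crb1 and Kcnb2, which outside the testis are known for a sodium leak channel, cell polarity and a potassium channel, were at 97.5, 60.5 and 58.1 CPM. Crb1 split by library, at 74.9, 76.0 and 71.7 CPM in TA, TB and TF and 44.2, 46.1 and 50.01 CPM in TC, TD and TE. Other genes highest in the class split the same way, among them Kcnb2, Stk32c, Jup and P2rx3. P2rx3 read 470, 497 and 512 CPM in TA, TB and TF and 352, 355 and 381 CPM in TC, TD and TE. Dyrk4 and Tmco5b did not split, and Slc36a3 was lower in TA, TB and TF. TA, TB and TF also had the higher mitochondrial shares over all their cells (0.463% to 0.507%, against 0.226% to 0.342%), and each of these sets holds both genotypes. The link was not tested further. The rule for the 15 largest ratios also gave 5 genes without a proper name.

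**Figure D2:**
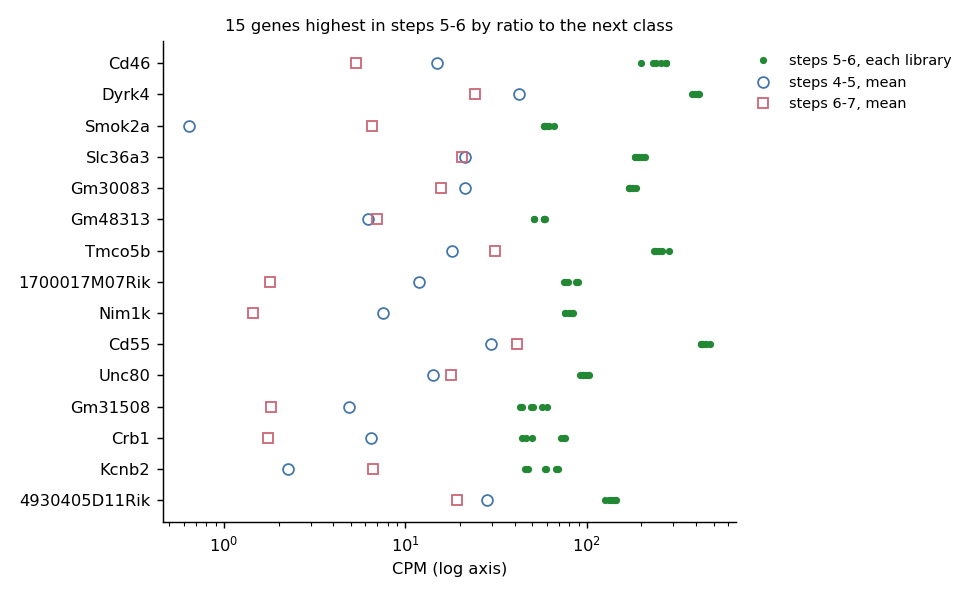
CPM on a log axis of the 15 genes with the highest ratio of steps 5-6 to the next of the other 16 classes. Dots are the 6 libraries in steps 5-6, circles and squares the means in steps 4-5 and 6-7. For Cd46 the dots lie between 199 and 273 CPM and the neighbours at 14.9 and 5.32 CPM.

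Entry into the class was sharper for gains than exit. From steps 4-5 to steps 5-6, 1518 of 8490 genes rose 2-fold or more in CPM (17.9%) and 2704 fell 2-fold or more (31.8%), with all 6 libraries in the same direction. From steps 5-6 to 6-7, 235 rose (2.77%) and 4845 fell (57.1%). Median UMI per cell was 15103, 13819 and 7372.5 over the 3 classes, so that CPM and UMI per cell differ at the exit: in UMI per cell 18 genes rose 2-fold or more into steps 6-7, among them Prm1, Prm2, Tnp2, Car2 and Apoe. The genes with the largest log2 rise into the class, on a scale of CPM plus 1, included Ppm1f (6.01 ± 0.28, SD over 6 libraries), Mgat4e (5.88 ± 0.21), Klc3 (5.80 ± 0.16), Sdc3 (5.69 ± 0.24), Agpat2 (5.64 ± 0.13), Tnp2, Tbx5 and Esyt3. Klc3, a kinesin light chain that binds outer dense fibres, went from 0.422 to 78.0 and 131 CPM, whereas Ppm1f, a phosphatase, went from 0.226 to 78.8 and back to 14.0 CPM. Tbx5, a transcription factor known from heart and limb, likewise went from 0.508 to 66.6 and 18.4 CPM.

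Losses on entry included genes of cell division. Kif20a, a mitotic kinesin, fell from 77.8 to 3.63 CPM and Nuf2, a kinetochore protein, from 59.9 to 3.58 CPM, with Atp10a, Lrriq1, Dcdc2a and Tpte also among the 12 largest falls. On exit, the largest falls besides Spaca1 were those of Ccdc89, Creld2, Ankrd7, Ccdc81, Cfap45, Sgms2 and Pphln1, with log2 changes of -5.96 to -6.52. Ccdc89 was at 1177 CPM in steps 5-6 and 11.9 CPM in steps 6-7. The largest rises on exit included Apoe, Cby3, Car2, Prm1, Prm2, Tnp2, Nudt16l2, Spata32, Ttc24 and Tmem239. Car2, a carbonic anhydrase, went from 9.91 to 302 and 1376 CPM.

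The message pool narrowed over the same classes. The 10 most abundant genes of each library held 4.39% ± 0.206 of UMI in steps 4-5, 6.69% ± 0.578 in steps 5-6 and 18.0% ± 1.23 in steps 6-7. The X chromosome held 1.05%, 1.49% and 1.69% of UMI in turn and the Y chromosome 0.102%, 0.0750% and 0.0200%. Across the 8490 genes, log2 CPM of the class correlated with steps 6-7 at r = 0.856 and with steps 4-5 at r = 0.720, and genes are not independent replicates. Mean CPM is a scale of 3′ UMI that was not divided by gene length. By it, the top genes after Prm2 and Tnp2 were Smcp, Odf2, Zc3h7a, Ropn1l, Peak1, Gstm5, Ybx1, Spz1 and Akap4. This ranking and the shares of the 10 most abundant genes cover only genes in the matrix, which has no entry for Tnp1. Zc3h7a ranged from 3429 CPM in TF to 8901 in TD and Peak1 from 3030 in TF to 5912 in TE.

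Cells of the class varied widely in their Prm2 content. Prm2 took 1.45% of the UMI of the median cell, 0.0578% at the 5th percentile and 4.23% at the 95th, and 2603 of 4231 cells (61.5%) reached 1%. In steps 4-5 the median was 0.0105% and 0.933% of cells reached 1%, while in steps 6-7 100% of cells had a Prm2 UMI and the 5th percentile was 4.07%. The cells of steps 5-6 were cut into 4 bins of equal cell number by their Prm2 share, at 0.575%, 1.45% and 2.65%, and other genes were read across them as means of 6 libraries. Median depth was similar, at 13092, 14936, 13945 and 12917 UMI from the lowest to the highest bin. Spaca1 was at 1163, 1076, 737 and 201 CPM, Hspa2, the testis heat shock protein of meiosis, at 1238, 753, 356 and 198 CPM, and Tbpl1 at 252, 154, 86.6 and 27.1 CPM. Each was lower in the highest than in the lowest bin in all 6 libraries. Cd46 (188, 286, 316 and 177 CPM) and Dyrk4 (323, 472, 498 and 297 CPM) were highest in the third bin. Fam209 was highest in the second. Actrt3, Ccin, Calr3 and Gpi1 were highest in the fourth, as was Car2 at 32.5, 140, 370 and 679 CPM. Acrv1 fell by less than Spaca1, from 269 to 136 CPM. No test is attached, since the cells were clustered on these genes.

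**Figure D3:**
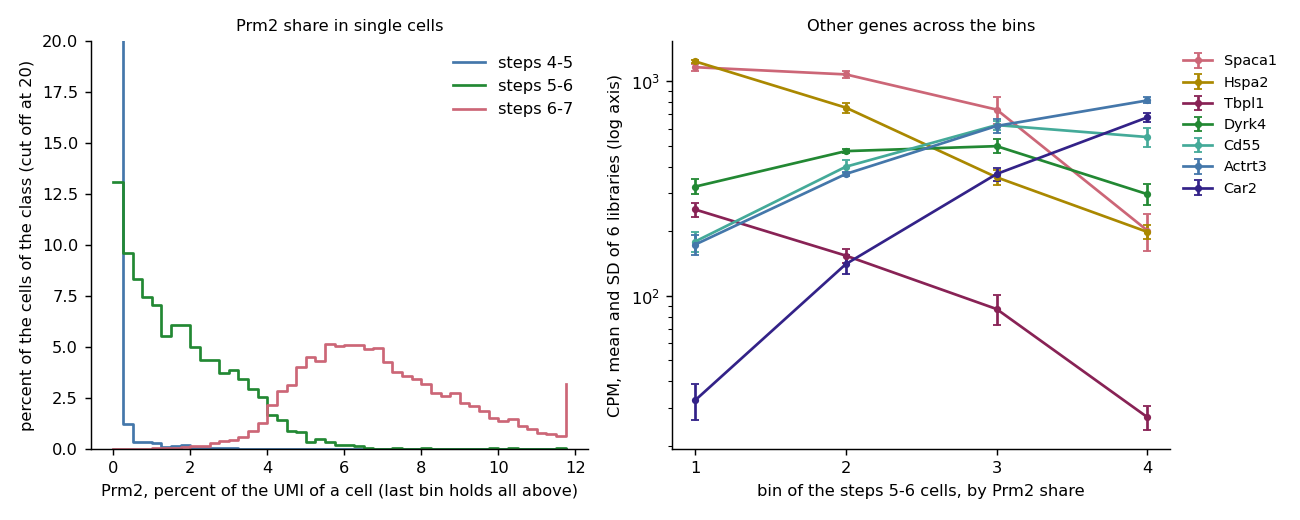
Left, the share of Prm2 in the UMI of single cells of 3 classes, in bins of 0.25%, with the vertical axis ending at 20% of cells and all shares above the axis in the last bin. Right, mean and SD over 6 libraries of the CPM of 7 genes in bins of the steps 5-6 cells by Prm2 share (log axis). Steps 5-6 spread from near 0 into the lower range of steps 6-7. Spaca1 declines from 1163 to 201 CPM and Car2 climbs from 32.5 to 679 CPM.

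Steps 5-6 held a lower share of the cells in each NONO deltaER library than in any NONO library. The class made up 9.69%, 10.9% and 10.2% of the cells in TA, TB and TC and 8.55%, 7.47% and 7.33% in TD, TE and TF. The groups did not overlap, with means of 10.3% ± 0.613 and 7.79% ± 0.669 (SD, n = 3 each; two-sided exact permutation p = 0.1, the lowest value possible with 3 libraries on each side). Within the libraries of higher mitochondrial share (TA and TB against TF) the difference was -2.97 percentage points. Within those of lower share (TC against TD and TE) it was -2.15 percentage points. Each of these differences rests on 1 library on one side, which gives no spread there. Against round spermatid classes of steps 3 to 8 alone the shares were 15.2% ± 0.661 and 12.2% ± 1.29. Steps 4-5 also did not overlap (17.8% ± 2.70 and 13.6% ± 2.72, exact permutation p = 0.1). Steps 6-7 did overlap (17.7% ± 2.65 and 20.5% ± 2.90, exact permutation p = 0.4). Shares of one library add to a fixed total, so a lower share is not a count of cells in the testis. Within the class the highest Prm2 bin held 19.2%, 21.3% and 28.0% of cells in TA, TB and TC and 32.5%, 30.1% and 23.8% in TD, TE and TF, and these overlap (exact permutation p = 0.2). Median UMI per cell was 13371 ± 999 and 14692 ± 1014 (exact permutation p = 0.3). At 2000 UMI per cell the median number of genes was 1223 ± 13.0 and 1210 ± 16.4 (exact permutation p = 0.2).

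No gene passed the test between the genotypes. Of 13332 genes tested by edgeR's quasi-likelihood test on UMI summed per library, 0 had an adjusted p under 0.05 (0% called, lowest adjusted p = 0.649), and 392 had an unadjusted p under 0.05. DESeq2 called 1 gene and edgeR without a filter on low counts 2. The same edgeR test was run on counts simulated from these libraries with 200 changed genes. It recovered 31.3% of genes changed 1.5-fold, 79.1% of those changed 2-fold and 93.9% of those changed 4-fold, with 8 false calls. Adjusted p-values depend on how many genes change, so these rates do not carry over to a comparison in which 0 genes passed. Libraries of the genotypes did not overlap for 1080 genes (8.1%), 492 higher (3.69%) and 588 lower (4.41%) in NONO deltaER. With 3 libraries on each side, groups that do not overlap have an exact permutation p of 0.1, so non-overlap alone is not a call.

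The gene nearest to the threshold was Gm17660, a predicted protein-coding gene on chromosome 5 (104070064 to 104077608, minus strand). It read 16.5, 14.2 and 14.97 CPM in the NONO libraries and 27.6, 29.2 and 22.7 CPM in the NONO deltaER libraries. The groups did not overlap, and the log2 difference was 0.82 ± 0.13 (SE). The edgeR adjusted p of 0.649 became 0.0136 with DESeq2, 0.00188 with no filter on low counts and 0.0435 with the library set as covariate. With a single library left out in turn the adjusted p ran from 0.0545 (without TF) to 1.00. In steps 4-5 and 6-7 of the same libraries the log2 differences of Gm17660 were 0.65 and 0.69.

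By the rule for naming, 10 genes at 20 CPM or more with higher and 10 with lower values and no overlap of the libraries are given as values that did not pass. Besides Gm17660 the higher ones were Timp2, Cotl1, Duxf3, Meltf, Hhipl2, Prss51, Mrpl15, Itga11 and Pknox1, with log2 differences from 0.24 to 0.40. Timp2, an inhibitor of matrix metalloproteinases, read 88.9, 89.8 and 93.7 CPM in NONO and 109.1, 108.1 and 108.2 CPM in NONO deltaER (log2 difference 0.28 ± 0.08, edgeR adjusted p = 1.00). Its log2 differences in steps 4-5 and 6-7 were 0.23 and 0.24. The lower ones were Gm31706, Hand2os1, Ap3s1, Ing3, Traf3ip1, Sbf2, Kif20b, Cebpg, Tpgs2 and Hecw1, from -0.82 to -0.22. Hand2os1, a long noncoding RNA beside Hand2, read 39.4, 30.0 and 26.4 CPM in NONO and 26.4, 22.2 and 21.6 CPM in NONO deltaER, and TC and TD nearly met. Ing3, a chromatin reader, read 44.6, 41.8 and 40.8 CPM against 34.1, 34.8 and 34.7 CPM (log2 difference -0.27 ± 0.09, edgeR adjusted p = 1.00).

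**Figure D4:**
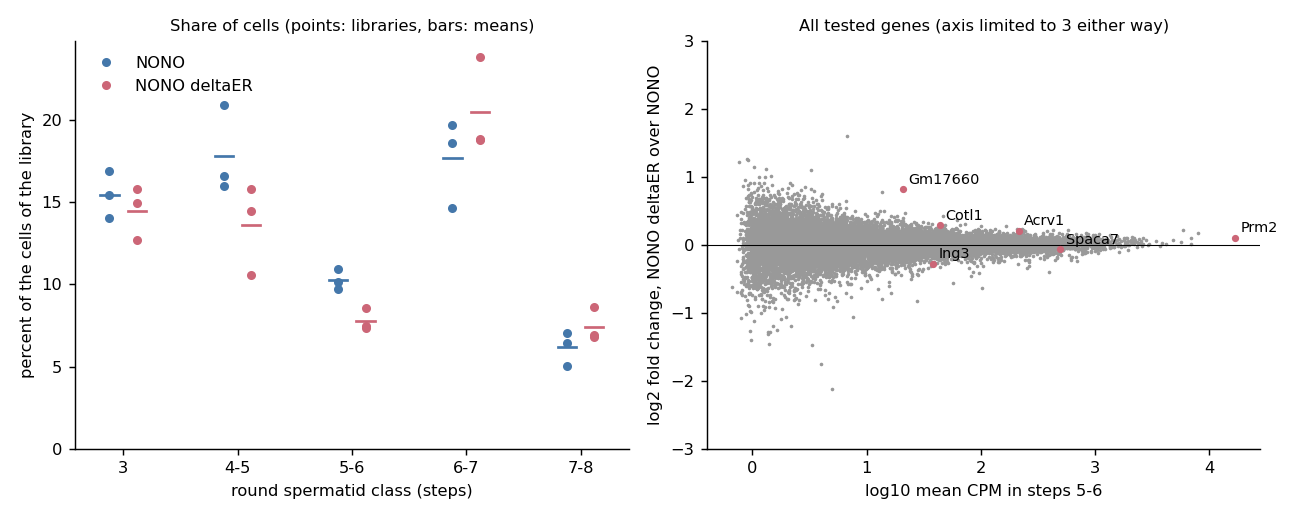
Left, percent of each library's cells in 5 round spermatid classes, points for libraries and bars for means. Right, log2 fold change of NONO deltaER over NONO for the tested genes in steps 5-6 against log10 mean CPM. Steps 5-6 shares lie at 9.69% to 10.9% in NONO and 7.33% to 8.55% in NONO deltaER, and Gm17660 stands at 0.82.

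The given markers and the main gene lists held no gene that passed the test between the genotypes. Acrv1 read 197, 189 and 213 CPM in NONO and 245, 241 and 198 CPM in NONO deltaER (log2 difference 0.21 ± 0.10), and TF lay within the NONO range. The Acrv1 difference was 0.13 without TD and 0.12 with the library set as covariate, and 0.011 with steps 6-7 summed in. Spaca7 differed by -0.06 ± 0.08 and turned to 0.02 without TF. Of the 28 acrosome genes 13 were above and 15 below 0, with a median log2 difference of -0.0047 against 0.01 for all genes, and 2 did not overlap (7.14%, beside 8.1% of all genes). Of 18 genes of histone-to-protamine exchange 9 were above and 9 below 0, and 1 did not overlap (5.56%). Prm2 was at 0.11, Tnp2 at 0.17 and Hist1h1t, the lowest of the list, at -0.57. The 15 outer dense fibre and fibrous sheath genes were 12 above and 3 below 0, median 0.05, and 1 did not overlap (6.67%). The 29 axoneme genes were 9 above and 20 below 0, median -0.04, and 3 did not overlap (10.3%). The shares without overlap were near that of all genes. Over all genes 7092 were above and 6240 below 0, so the signs of the fibre and sheath list and of the axoneme list were less even. Whether these splits differ from that of all genes was not tested. The summed axoneme share was 0.788% to 0.791% of UMI in NONO and 0.762% to 0.784% in NONO deltaER. The highest Prm2 bin was on average larger in NONO deltaER, and its part in this difference was not tested.

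Nono itself was scarce in this class. It read 2.71, 2.82 and 2.20 CPM in NONO and 1.79, 2.59 and 1.69 CPM in NONO deltaER, with a log2 difference of -0.35 ± 0.25 (edgeR adjusted p = 1.00). The groups overlapped. The Nono difference was -0.56 without TE, -0.23 without TF and -0.068 with equal numbers of cells per library. As the altered part of Nono is not given here, its 3′ tags do not check the genotype. Sfpq averaged 28.6 CPM and Pspc1 8.69 CPM, with log2 differences of -0.35 ± 0.18 and -0.11 ± 0.15, neither past the threshold. The Sfpq difference was -0.18 without TD and -0.61 without TF, and that of Pspc1 was -0.0076 without TC and -0.19 without TA. In steps 4-5 Nono was at 3.98 CPM.

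No X-linked gene passed the edgeR test. X-linked genes held 1.45%, 1.49% and 1.47% of UMI in TA, TB and TC and 1.505%, 1.496% and 1.505% in TD, TE and TF. The highest NONO value was 1.487% and the lowest NONO deltaER value 1.496%, so the groups did not overlap. Of 364 tested X-linked genes 225 were above and 139 below 0, beside 7092 above and 6240 below 0 over all 13332 genes, with a median log2 difference of 0.05 against 0.01 for all genes, and 35 did not overlap (9.62%, beside 8.1% of all genes). Without Akap4 the X share overlapped, at 1.12% to 1.15% in NONO and 1.14% to 1.17% in NONO deltaER. The X share was higher in steps 6-7 than in steps 5-6, and the part of the cell positions within the class was not tested.

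The response in steps 5-6 was compared with that in each neighbour within the same libraries. In limma fits of the paired log2 differences, 0 of 12659 genes differed from steps 4-5 at an adjusted p under 0.05 (lowest adjusted p = 0.493, and 668 genes under 0.05 without adjustment), and 0 of 10746 differed from steps 6-7 (lowest adjusted p = 0.715, and 557 genes without adjustment). The lowest p against steps 4-5 was that of Cdca8, a chromosomal passenger protein, with log2 differences of -0.67 in steps 5-6 and 0.09 in steps 4-5. Against steps 6-7, Nim1k was among the 5 lowest, at 0.01 in steps 5-6 and -0.71 in steps 6-7, where its level was 1.44 CPM.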

How the data were processed

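The deposited matrix holds UMI counts, whole numbers that the authors made with Cell Ranger 2.1.1 against mm10, per the submitters' processing notes. Libraries followed the 10x single cell 3′ v2 protocol, per the labels. Neither the annotation version nor any later filter is stated. The mitochondrial percent of each cell is a deposited value and was used to describe cells, and the class and group of each cell are the deposited annotation. Replicate numbers of the labels could not be tied to the 6 libraries.

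UMI counts of the class were summed per library, with 8498509 to 14400200 UMI each. NONO deltaER was tested against NONO with edgeR 4.0.16 (TMM, filterByExpr, robust quasi-likelihood test, Benjamini-Hochberg adjustment over 13332 genes, threshold 0.05), which was first tested on simulated data. Responses in 2 classes were compared with limma 3.58.1 on per-library differences of log2 CPM (prior count 2). DESeq2 1.42.0, other normalization, filters, cells, class borders and left-out libraries were alternatives. Single values were compared with exact permutation tests. Changes between classes are in CPM (UMI scaled to a common total, computed here from the deposited counts), called at 2-fold with all 6 libraries in 1 direction and 10 CPM or more in at least 1 of 3 classes. Doublets were scored with Scrublet in scanpy 1.11.5. Genes were placed with GENCODE M21 (GRCm38, the same build as mm10), where 25127 of 25771 symbols (97.5%) matched once, and promoter windows are from RefSeq.

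Genes named are the given markers, Nono and its partners, the 15 highest genes, the 15 with the largest ratio to the next class, the 12 largest rises and falls on each side at 50 CPM or more, up to 4 of each list, the 10 higher and 10 lower genes with the lowest p at 20 CPM or more without overlap, and up to 5 per test of responses. Other list members, the genes read across Prm2 bins and the printed promoters were chosen after their values were seen. The class and the lists were chosen with earlier results of these data known.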

Additional observations from a re-analysis of the deposited data

How the results depend on the processing

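The 0 genes called between the genotypes became 1 with DESeq2 (Gm17660), 2 with no filter on low counts (Gm17660 and Gm49116) and 1 with the library set as covariate (Gm17660). The count was 0 with RLE size factors, with the filters on cells, with neighbouring classes summed in and without each library in turn, where 224 to 1026 genes had an unadjusted p under 0.05. Counts of differing responses stayed at 0 under every alternative run. The lower share of the class in NONO deltaER kept its sign throughout, at -2.14 to -2.85 percentage points with 1 library left out. The difference in median UMI per cell ran from 765 to 1892 with 1 library left out. The difference in genes per cell was -12.7 at 2000 UMI and turned to 120 without thinning. Genes that rose 2-fold or more into steps 6-7 numbered 235 in CPM and 18 in UMI per cell. This alternative, the others for counts between classes, and those on the X-linked share and on Prm2 bins were chosen after seeing the data. Of 375 values for 25 named genes, 371 kept their direction and side of the threshold. Spaca7 ran from -0.16 to 0.018 with 1 library left out, above 0 without TF, and Gm17660 passed the threshold under 3 settings. No paired analysis was possible because the files do not tie the libraries to the replicate numbers of the labels. With 3 libraries against 3, a permutation test cannot go below 0.1, and small changes were recovered less often than large ones on simulated counts.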

Other observations

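Further gene groups of the class were read in the same way and had no gene past the threshold between the genotypes. Of 13 germ cell chaperone genes at 10 CPM or more, 10 fell 2-fold or more from steps 4-5 (76.9%, beside 31.8% of all genes). Hsp90aa1 was at 2257, 913 and 108 CPM in steps 4-5, 5-6 and 6-7, and Hspa5, the chaperone of the endoplasmic reticulum, at 145, 13.6 and 8.10 CPM. Hspa4l differed from them, at 1147, 1471 and 1817 CPM. Calr3, a testis form of calreticulin that helps fold fertility proteins, was highest in steps 5-6 at 384 CPM, between 47.4 and 242 CPM, while its partner Clgn was at 609, 312 and 22.7 CPM. Of 19 genes of ADAM proteases and their chaperones, 3 rose 2-fold or more (Calr3, Adam6a and Adam6b) and 3 fell from steps 4-5 (15.8% each way, beside 17.9% and 31.8% of all genes). Into steps 6-7, 15 of the 19 fell (78.9%, beside 57.1%). Catsper3, a subunit of the sperm calcium channel, was at 268, 128 and 3.53 CPM, and Atp1a4, the sperm sodium pump, at 352, 650 and 896 CPM.

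Of 5 multicopy spermatid genes of the sex chromosomes at 10 CPM or more, 5 fell 2-fold or more into steps 6-7, as did 57.1% of all genes, and 0 did so from steps 4-5, where 31.8% of all genes did. Slxl1 on the X chromosome was at 42.8, 37.6 and 0.855 CPM, and Sly on the Y chromosome at 33.4, 21.4 and 1.28 CPM. These copies are nearly identical, so how reads were split between them is uncertain. Ewsr1, which encodes a nuclear RNA-binding protein, was at 512, 183 and 8.41 CPM.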
